A study of Mus musculus with 3 samples.

Results

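The 36 genes described here encode parts of the machinery that takes a cell through division: the cyclins and cyclin-dependent kinases (CDKs) of G1, 2 CDK inhibitors, the factors that license and copy DNA, enzymes that make its building blocks, and genes used in G2 and mitosis. They were chosen by gene symbol as a list of cell cycle genes, with earlier results of these data known. All 36 were found among the 24054 genes of the deposited expression table. RNA was sequenced from mouse primary cortical neurons, cells taken from the brain of C57BL/6 embryos at embryonic day 17 and grown for 7 days. There was 1 library in each of 3 groups. The control culture stayed at 21% oxygen with no added hormone, the hypoxia culture spent 7 hours at 0.2% oxygen without T3, and the culture called hypoxia with T3 spent 7 hours at 0.2% oxygen with 5 nM T3. T3 is triiodothyronine, the thyroid hormone that binds the nuclear thyroid hormone receptors. With 1 library per group there is no spread between replicates and no test of any difference. Each ratio below is given with an exact 95% interval that covers counting error only.

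As background, a dividing cell commits to a new cycle in G1, when D-type cyclins with Cdk4 or Cdk6 release E2F transcription factors from the retinoblastoma proteins, and the inhibitors p27 (Cdkn1b) and p57 (Cdkn1c) hold the CDKs back. E2F factors drive the genes of DNA replication in S phase. The genes of G2 and mitosis are switched on later, largely through promoter elements named CHR (cell cycle genes homology region) and CCAAT boxes, bound by MuvB complexes and the factor NF-Y. Cortical neurons have left the cycle for good. In embryonic cortex the dividing cells are the radial glia and intermediate progenitors, and in culture also glial precursors.

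The label of the list speaks of residual progenitors, and the libraries bear on that only in part. All 11 markers of neural progenitors on the marker list had reads in all 3 libraries. Sox2, a transcription factor of neural stem cells, stood at 42.2 CPM in control (CPM, the authors' read counts scaled to library size), 52.4 in hypoxia and 50.4 with T3 added. Nes, the intermediate filament nestin, stood at 70.5, 91.2 and 97.6 CPM in the same order. Eomes, which marks intermediate progenitors, was near the bottom of the measured range at 1.39, 1.66 and 1.62 CPM. The progenitor markers summed to 301, 389 and 379 CPM, while 8 markers of neurons summed to 7456, 7697 and 7710 CPM. Astrocyte markers (8 genes) summed to 507, 528 and 542 CPM and oligodendrocyte lineage markers (9 genes) to 347, 202 and 204 CPM, so glial precursors were present as well. Microglia and endothelial markers summed to between 1.70 and 2.89 CPM in each library. In the same order the microglia markers (9 genes) had 49, 43 and 68 reads, and the endothelial markers (6 genes) 45, 38 and 40 reads. Bulk RNA does not show which of these cells the cell cycle reads came from, and fewer dividing cells cannot be told apart from less cell cycle RNA in each.

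Read totals were 18081904 (control), 17118865 (hypoxia) and 22533574 (hypoxia with T3). A single read stood for 0.0463, 0.0552 and 0.0425 CPM, and a count of 0 would allow up to 3 reads, or 0.139, 0.166 and 0.128 CPM. The treatments can be read from known targets. Slc2a1, the glucose transporter induced by hypoxia, stood at 8.06, 51.1 and 51.7 CPM, and Hr, a direct target of thyroid hormone, at 4.03, 4.75 and 23.9 CPM, in the order control, hypoxia and hypoxia with T3. The same order is kept for every set of 3 values below.

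Promoter sequences are shown first, for the genes on which the description turns. RefSeq, on GRCm38.p6, held promoters for 29 of the 36 genes (31 promoters), and the 250 bases upstream of each annotated start were searched on both strands. The elements searched were the CHR (TTTGAA or TTCGAA), the CCAAT box (CCAAT) and an E2F element (TTTCCCGC, TTTGGCGC, TTTCGCGC or TTTGCCGC). Capitals mark every match on either strand, and matches that overlap run together. Mki67 and Top2a are printed as the 2 G2 and mitosis genes with the most reads in each library, both lower in the hypoxia library. Bub1b is printed as a spindle checkpoint gene that was also lower there, Mcm6 as a replication gene at nearly the same level in all 3 libraries, and Cdkn1b as the gene that was more than 2-fold higher in hypoxia. On GRCm38.p6 they lie at chr7:135716380-135716629 (Mki67, minus strand), chr11:99024190-99024439 (Top2a, minus strand), chr2:118597961-118598210 (Bub1b, plus strand), chr1:128359706-128359955 (Mcm6, minus strand) and chr6:134920151-134920400 (Cdkn1b, plus strand). None of these windows overlaps an exon annotated in GENCODE M21.
Mki67: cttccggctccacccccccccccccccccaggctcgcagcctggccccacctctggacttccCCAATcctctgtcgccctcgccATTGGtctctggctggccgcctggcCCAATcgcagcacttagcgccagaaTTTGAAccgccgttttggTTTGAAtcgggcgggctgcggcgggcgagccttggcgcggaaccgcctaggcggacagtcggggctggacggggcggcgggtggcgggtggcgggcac
Top2a: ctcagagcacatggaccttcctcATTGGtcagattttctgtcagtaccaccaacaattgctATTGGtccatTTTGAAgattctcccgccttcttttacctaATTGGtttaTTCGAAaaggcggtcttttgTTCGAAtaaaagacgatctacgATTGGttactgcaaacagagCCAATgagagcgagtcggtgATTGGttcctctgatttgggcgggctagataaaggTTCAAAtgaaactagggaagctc
Bub1b: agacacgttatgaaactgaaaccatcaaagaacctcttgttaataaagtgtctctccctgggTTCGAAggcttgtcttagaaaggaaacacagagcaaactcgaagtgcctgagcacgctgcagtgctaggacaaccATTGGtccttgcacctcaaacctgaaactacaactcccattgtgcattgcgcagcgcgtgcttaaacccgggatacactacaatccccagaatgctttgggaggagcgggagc
Mcm6: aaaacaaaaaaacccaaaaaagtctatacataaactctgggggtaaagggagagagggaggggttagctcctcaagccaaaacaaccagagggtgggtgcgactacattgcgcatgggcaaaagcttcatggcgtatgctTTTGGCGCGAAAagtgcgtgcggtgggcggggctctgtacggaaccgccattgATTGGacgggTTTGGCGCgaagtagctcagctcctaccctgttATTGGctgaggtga
Cdkn1b: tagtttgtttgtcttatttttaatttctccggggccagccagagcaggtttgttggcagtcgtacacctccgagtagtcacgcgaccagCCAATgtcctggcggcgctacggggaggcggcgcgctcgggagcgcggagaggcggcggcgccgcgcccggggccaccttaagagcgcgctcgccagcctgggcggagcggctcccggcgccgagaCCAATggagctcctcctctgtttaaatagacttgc

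A CCAAT box was found in all 12 G2 and mitosis promoters that could be searched and in 24 of the 31 promoters of the list (77.4%), against 33.8% of the 32851 mouse promoters searched the same way. A CHR match was found in 6 of the 12 G2 and mitosis promoters (50%), in 2 of 8 of the replication genes (25%) and in 17.1% of all promoters. The G2 and mitosis genes with a match were Mki67, Top2a and Bub1b, all printed above, and Ccnb2, Cdk1 and Cdc20. Those without were Cenpe, Cenpf, Bub1, Ccnb1, Aurka and Plk1. Genes lower in hypoxia thus occur both with and without a CHR match. The E2F letters were found in 4 of 8 promoters of the replication genes (50%), in 1 of 12 of the G2 and mitosis genes (8.33%) and in 1.86% of all promoters. The Top2a window holds 4 CHR and 6 CCAAT matches, that of Mki67 2 and 3, that of Bub1b 1 and 1. The Mcm6 window holds 3 E2F and 2 CCAAT matches and no CHR match, and the Cdkn1b window holds 2 CCAAT matches and neither of the other elements. These are matches to letters in a window, described for what the genes share, and binding was not measured.

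All 36 genes passed the filter on low values (a mean over the libraries of 1 CPM or more), as did 12692 genes in all. Their levels ran from 2.27 CPM (49 reads) for Cdk6 to 157 CPM (3396 reads) for Ccnd2 in control. The range was 1.10 to 162 CPM in the hypoxia library and 1.06 to 151 CPM in the library with T3. Set per kilobase of exon, Cdk4 was the most abundant of them in control, with 31.7 RPKM (reads per kilobase of exon, scaled to the reads of the library). It was followed by Pcna at 27.5, Cdkn1b at 20.9 and Ccnd2 at 19.96. In hypoxia Pcna led with 45.4 RPKM, ahead of Cdkn1b at 37.7 and Cdk4 at 26.4, and in hypoxia with T3 Pcna led again with 46.8. The genes with the highest level per length were thus those of G1 control and the replication clamp rather than those of mitosis.

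**Figure D1:**
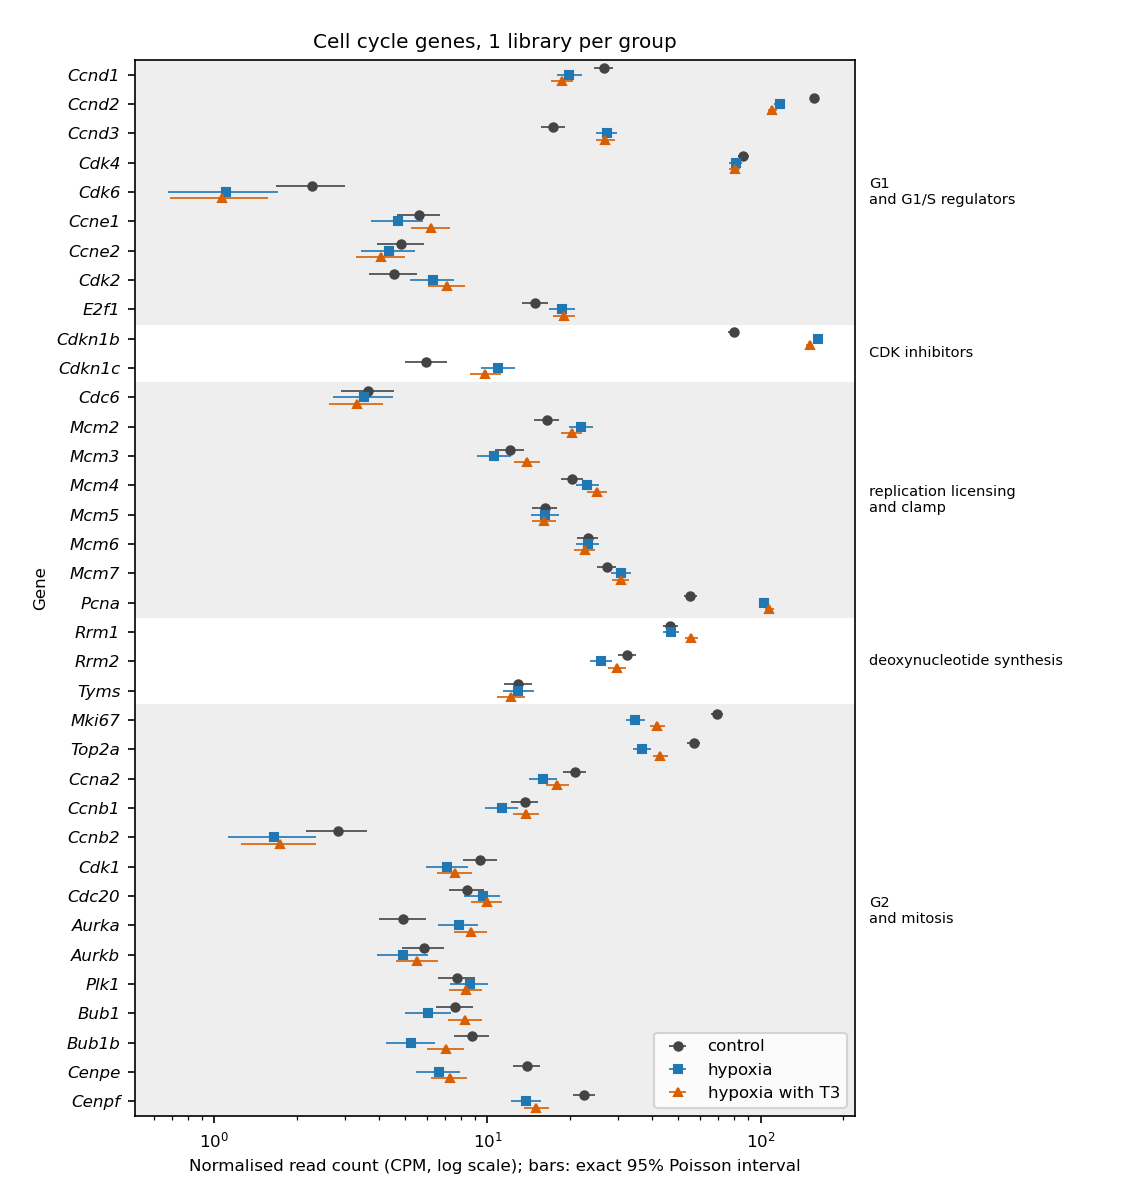
Normalised read counts (CPM, log scale) of the 36 cell cycle genes, grouped by role, in control (circles), hypoxia (squares) and hypoxia with T3 (triangles), 1 library each; bars are exact 95% Poisson intervals of the reads. Cdkn1b stands at 79.7, 162 and 151 CPM, Pcna at 55.4, 103 and 108 CPM, and Mki67 at 69.4, 34.8 and 41.8 CPM.

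The first question of the design is how these genes stood after 7 hours of hypoxia. In the hypoxia library the genes did not move as one block. The CDK inhibitors, the cyclin Ccnd3 and the replication clamp Pcna were higher than in control, the MCM helicase genes were close to control, and most G2 and mitosis genes were lower, led by Cenpe, Mki67, Ccnb2 and Bub1b. Summed over all 36 genes the library levels were 925, 943 and 969 CPM, a hypoxia ratio of 1.019 (0.903 with libraries scaled to the same sum), so that the differences between roles nearly balanced.

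Among the 36 genes 1 was at least 2-fold higher in hypoxia after adding 1 CPM to each value (1.99% of the genes compared were), and 0 were at least 2-fold lower (4.92%). At least 1.5-fold, 4 were higher (8.46% of the genes compared) and 6 lower (13.8%). The counting interval of the ratio lay above 1 for 9 genes (37.8%) and below 1 for 13 (30%), and 15 genes were above control at all (54.5%). The median log2 ratio of the 36 was -0.11, beside 0.05 over all genes compared. By the fold rules these counts are near the shares of the table, so the list as a whole did not stand out. By the intervals a smaller share of the list than of the table lay above 1 and a slightly larger share below, and this difference was not tested.

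Among the G1 and G1/S regulators (9 genes) the D-type cyclins, the partners of Cdk4 and Cdk6, did not go the same way. Ccnd1 stood at 26.6, 19.9 and 18.8 CPM and was 1.33-fold lower in hypoxia than in control (interval 1.17 to 1.53). Ccnd2, the most abundant of the 3 in reads, stood at 157, 117 and 110 CPM and was 1.34-fold lower (1.27 to 1.42). Ccnd3 stood at 17.4, 27.3 and 27.0 CPM and was 1.57-fold higher (1.37 to 1.80). Both hypoxic libraries thus lay on the same side of control for each of the 3 cyclins. The contrast does not depend on how the libraries are scaled, since it holds inside each library: there were 9.06, 4.30 and 4.08 Ccnd2 reads for each Ccnd3 read. Ccnd1 gave 1.53, 0.731 and 0.696 reads for each Ccnd3 read. These pairs of genes were chosen after their values were seen.

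The kinases of G1 differed in level and in reads. Cdk4 stood at 86.4, 80.97 and 80.4 CPM, a ratio of 0.937 in hypoxia (0.874 to 1.004), and the interval lies below 1 under both other scalings tried (libraries scaled to the same sum, and median-of-ratios size factors). Cdk6 was the least abundant gene of the list, with 49, 20 and 25 reads, and stood at 2.27, 1.10 and 1.06 CPM. Its ratio of 0.486 in hypoxia has an interval from 0.274 to 0.834, and with 1 CPM added its log2 ratio was -0.64. Cdk6 is also the longest gene of the list, at 189.5 kb from first to last exon.

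Ccne1 and Ccne2, the E-type cyclins that activate Cdk2 at the entry to S phase, stood at 5.61, 4.69 and 6.21 CPM and at 4.82, 4.36 and 4.08 CPM. Their hypoxia over control intervals both include 1 as deposited. Cdk2 stood at 4.54, 6.30 and 7.10 CPM, 1.39-fold higher in hypoxia (1.05 to 1.83), and E2f1, the activating E2F factor, at 14.97, 18.8 and 19.1 CPM, 1.25-fold higher (1.07 to 1.47). Of the 9 regulators, 3 had an interval above 1 (37.8% of all genes compared did) and 3 below 1 (30%), near those shares. With libraries scaled to the same sum the intervals of Cdk2 and E2f1 include 1 and those of Cdk4 and Ccne1 lie below 1, which leaves 1 above (25.2% of all genes) and 5 below (41%). Their summed level was 320, 281 and 274 CPM.

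The CDK inhibitors were the role with the largest difference. Cdkn1b, which encodes p27, stood at 79.7, 162 and 151 CPM, from 1720, 2938 and 3555 reads. It was 2.04-fold higher in hypoxia than in control (1.92 to 2.16), the one gene past the 2-fold rule. The call sits at the edge of that rule, since the ratio was 1.80 with libraries scaled to the same sum and 1.96 with median-of-ratios size factors. Cdkn1c, which encodes p57, stood at 5.98, 10.9 and 9.82 CPM and was 1.83-fold higher in hypoxia (1.46 to 2.30). For both inhibitors the control library was the lowest of the 3. Within a library there were 0.506 Cdkn1b reads for each Ccnd2 read in control, and 1.38 and 1.37 in the hypoxic libraries. This pair too was chosen after its values were seen.

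Neurons express p27 too, and Cdkn1b was measured here in bulk RNA of primary cortical neuron cultures that also held markers of other cells. Reads of Cdkn1b therefore cannot be assigned to dividing cells, and the part of each cell type in its difference was not tested.

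The replication genes (8 genes) split between the clamp and the helicase. Pcna, the sliding clamp that holds DNA polymerases on the template, stood at 55.4, 103 and 108 CPM and was 1.86-fold higher in hypoxia (1.73 to 2.002). Mcm2 to Mcm7 encode the 6 subunits of the replicative helicase, and these were close to control. Mcm5 stood at 16.2, 16.3 and 16.1 CPM (ratio 1.004, 0.857 to 1.18) and Mcm6 at 23.3, 23.3 and 22.7 CPM (ratio 1.0, 0.876 to 1.14). Mcm2 was the furthest from control, at 16.5, 21.98 and 20.3 CPM, 1.34-fold higher in hypoxia (1.16 to 1.55). Mcm7 stood at 27.3, 30.9 and 30.7 CPM, 1.13-fold higher (1.01 to 1.27), with an interval that includes 1 under both other scalings. Mcm3 at 12.1, 10.6 and 14.0 CPM, Mcm4 at 20.4, 23.2 and 25.2 CPM and the loading factor Cdc6 at 3.66, 3.53 and 3.32 CPM had hypoxia intervals that include 1. No helicase gene was lower by its interval as deposited, and with libraries scaled to the same sum Mcm3 was, at a ratio of 0.780 (0.644 to 0.944).

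The summed level of the 8 replication genes was 175, 233 and 240 CPM, 1.33-fold higher in hypoxia (1.28 to 1.39). Without Pcna the other 7 summed to 119, 130 and 132 CPM, a ratio of 1.09 that became 0.964 with libraries scaled to the same sum. The higher sum thus came mostly from Pcna. Part of the exonic sequence of Pcna (23.3% of its words of 31 bases) and of Mcm7 (26.8%) also occurs in other annotated genes, for Pcna in the pseudogene Pcna-ps2. These copies have no row in the deposited table, and how reads were shared between copies is not given in the sources used here.

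The enzymes of deoxynucleotide synthesis (3 genes) showed little difference. Rrm1, the large subunit of ribonucleotide reductase, stood at 46.8, 47.1 and 55.7 CPM, a ratio of 1.01 in hypoxia (0.919 to 1.11). Rrm2, its small subunit, whose iron centre needs oxygen, stood at 32.4, 26.01 and 29.9 CPM and was 1.25-fold lower in hypoxia (1.11 to 1.403). Tyms, thymidylate synthase, stood at 12.9, 12.98 and 12.2 CPM, a ratio of 1.004 (0.840 to 1.198). As deposited only Rrm2 of these 3 had an interval that excludes 1, and with libraries scaled to the same sum that of Rrm1 also did, at a ratio of 0.893 (0.814 to 0.979).

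The G2 and mitosis genes (14 genes) were the lowest role in hypoxia. Their summed level was 253, 170 and 196 CPM, 1.48-fold lower in hypoxia than in control (1.42 to 1.55). Of the 14, 11 were below control, 9 of them by their intervals, and 1 was above by its interval (of all genes compared, 30% had an interval below 1 and 37.8% above). The median log2 ratio was -0.36. Mki67 and Top2a made up much of the sum. Without Mki67 the sum was 1.35-fold lower, and without both it was 1.28-fold lower (1.21 to 1.36).

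Mki67 encodes Ki-67, the protein of the mitotic chromosome surface used as a marker of cycling cells. It stood at 69.4, 34.8 and 41.8 CPM, from 1498, 630 and 983 reads. It was 1.995-fold lower in hypoxia (1.82 to 2.19), and its log2 ratio of -0.98 with 1 CPM added lay just short of the 2-fold rule. Top2a, the topoisomerase that untangles sister chromosomes, stood at 57.0, 36.8 and 43.0 CPM and was 1.55-fold lower (1.41 to 1.70). Control was the highest of the 3 libraries for both genes. For each Pcna read there were 1.25, 0.338 and 0.388 Mki67 reads, a pair chosen after its values were seen.

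The genes of the kinetochore and the spindle checkpoint were mostly lower as well. Cenpe, the kinesin that carries chromosomes to the spindle equator, stood at 13.9, 6.63 and 7.27 CPM and was 2.105-fold lower in hypoxia (1.70 to 2.62). With 1 CPM added its log2 ratio was -0.97, again just short of the rule. Cenpf, another kinetochore protein, stood at 22.6, 13.9 and 15.1 CPM, 1.63-fold lower (1.395 to 1.90). Of the checkpoint kinases, Bub1b stood at 8.76, 5.25 and 7.06 CPM, 1.67-fold lower (1.30 to 2.16), and Bub1 at 7.60, 6.08 and 8.29 CPM, with an interval that includes 1 as deposited (0.622 to 1.024) and lies below 1 under both other scalings. Their intervals overlap, and the difference between them was not tested. For Bub1 the control value lay between the hypoxic ones.

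The mitotic cyclins and their kinase were lower by smaller amounts. Ccna2 stood at 20.9, 16.0 and 18.0 CPM, 1.30-fold lower in hypoxia (1.12 to 1.51). Ccnb1 stood at 13.7, 11.3 and 13.9 CPM, 1.22-fold lower (1.015 to 1.46), and 27.7% of its words of 31 bases occur in other genes, mainly the pseudogene Ccnb1-ps. Cdk1, the kinase these cyclins activate, stood at 9.41, 7.12 and 7.61 CPM, 1.32-fold lower (1.05 to 1.66). Ccnb2 rested on 61, 30 and 41 reads and stood at 2.83, 1.66 and 1.74 CPM, 1.71-fold lower with a wide interval (1.09 to 2.74). All 4 genes were lowest in the hypoxia library.

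Aurka went the other way. This spindle pole kinase stood at 4.91, 7.84 and 8.67 CPM (106, 142 and 204 reads) and was 1.60-fold higher in hypoxia (1.23 to 2.07). Aurkb, the kinase of the chromosomal passenger complex, stood at 5.84, 4.92 and 5.53 CPM. Plk1, a mitotic kinase, stood at 7.74, 8.62 and 8.33 CPM, and Cdc20, the activator of the anaphase-promoting complex, at 8.39, 9.61 and 9.95 CPM. The hypoxia intervals of these 3 include 1 as deposited, that of Aurkb lying below 1 with libraries scaled to the same sum, and 25.5% of the Cdc20 words of 31 bases occur in other genes. Inside the libraries there were 2.84, 0.845 and 0.838 Cenpe reads for each Aurka read, a pair chosen after its values were seen. Aurka was the only G2 and mitosis gene of the list with an interval above 1 in hypoxia.

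**Figure D2:**
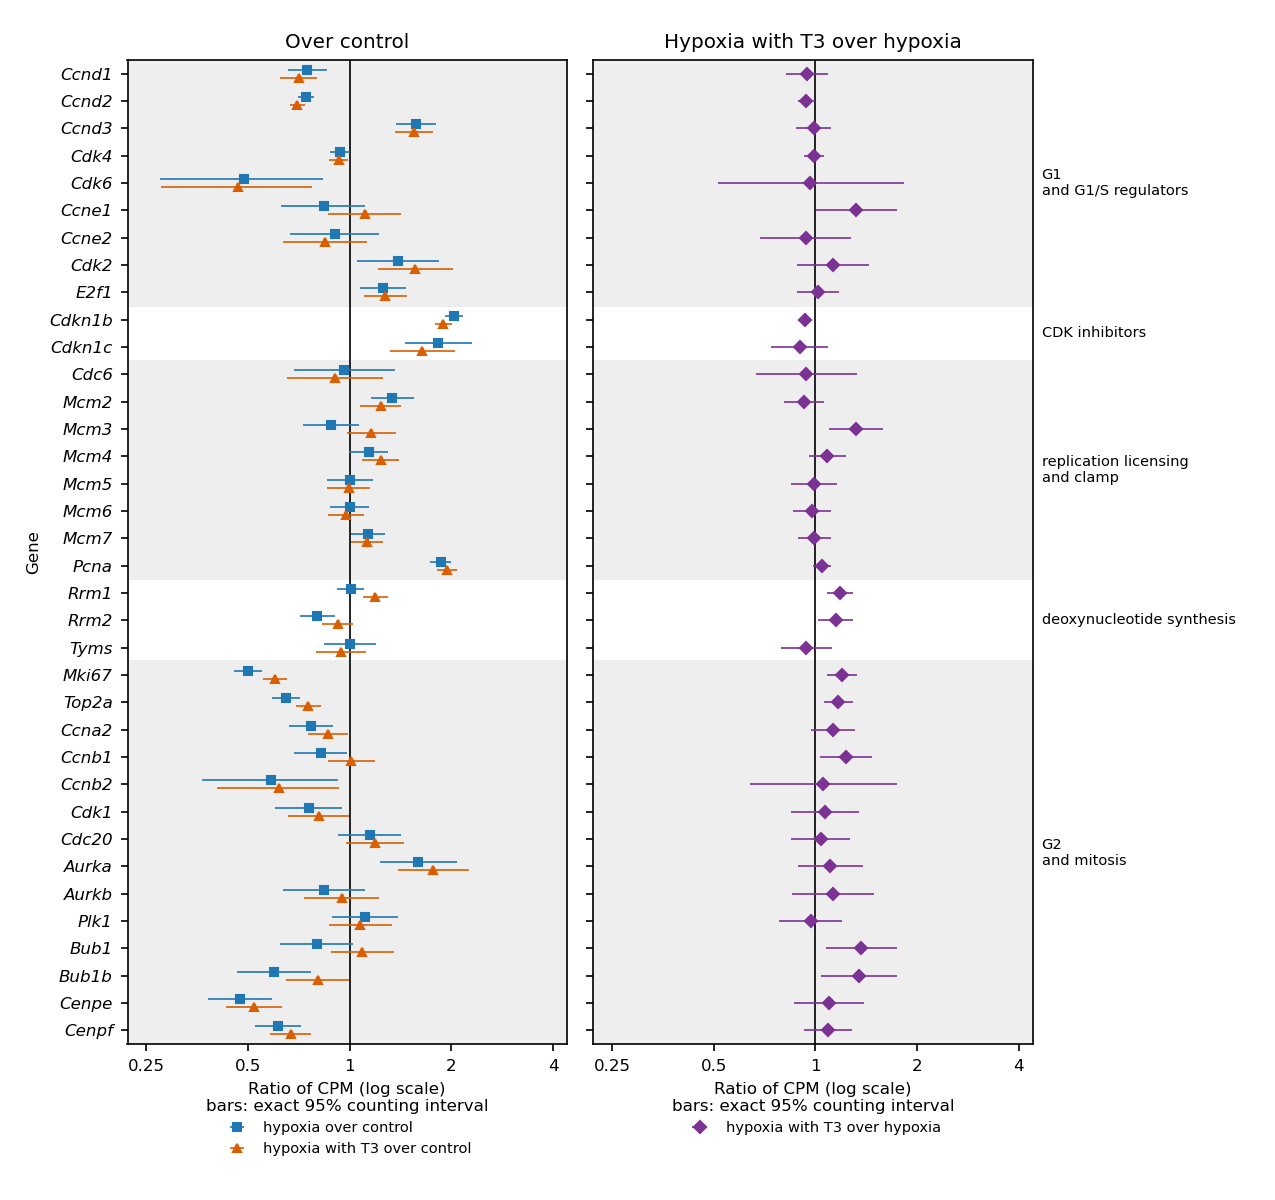
Ratio of CPM (log scale) for each of the 36 genes, hypoxia (squares) and hypoxia with T3 (triangles) over control on the left and hypoxia with T3 over hypoxia (diamonds) on the right, 1 library each; bars are exact 95% counting intervals and the line marks 1. On the left the hypoxia ratios run from 0.475 for Cenpe to 2.04 for Cdkn1b, and on the right the ratios run from 0.898 for Cdkn1c to 1.36 for Bub1.

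Over the whole table the ratio of hypoxia to control went with the span of a gene, and the members span different lengths. Over all genes compared the median log2 ratio of hypoxia over control was 0.33 for genes spanning under 10 kb, 0.18 for 10 to 30 kb, -0.12 for 30 to 100 kb and -0.36 for 100 kb or more. Cdkn1b, Cdkn1c and Pcna span 5.11, 2.71 and 4.15 kb, and Top2a, Bub1, Bub1b, Cenpe and Cenpf each span 30 kb or more. These 5 long genes were all below control, as were 2229 of the 3662 genes of 30 to 100 kb compared. The sum of the 5 was 1.60-fold lower in hypoxia (1.49 to 1.72). The sum of all genes of 30 to 100 kb had a ratio of 1.04 (0.923 with libraries scaled to the same sum).

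The sum of the shorter G2 and mitosis genes was lower too, with much of it from Mki67. The 9 that span under 30 kb summed to 143, 102 and 116 CPM, 1.41-fold lower in hypoxia (1.33 to 1.49), with 6 of 9 below control. Mki67, at 26.6 kb, gave 69.4, 34.8 and 41.8 CPM of this sum. It was the only 1 of the 9 at least 1.5-fold lower (13.8% of all genes compared were). Intervals lay below 1 for 5 of the 9 (30%) and above 1 for 1 (37.8%). Over all genes spanning under 30 kb the sum was 1.29-fold higher (1.14-fold with libraries scaled to the same sum), and 4966 of 6922 were above control. From its furthest upstream annotated start, Ccnd3 spans 94.6 kb and, being higher, goes against the pattern. A further annotated Ccnd3 start lies downstream, just past chr17:47593466, in a gene that ends at 47599691. Which start the Ccnd3 reads came from was not determined. The part of gene length in the ratios of the list was not tested.

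**Figure D3:**
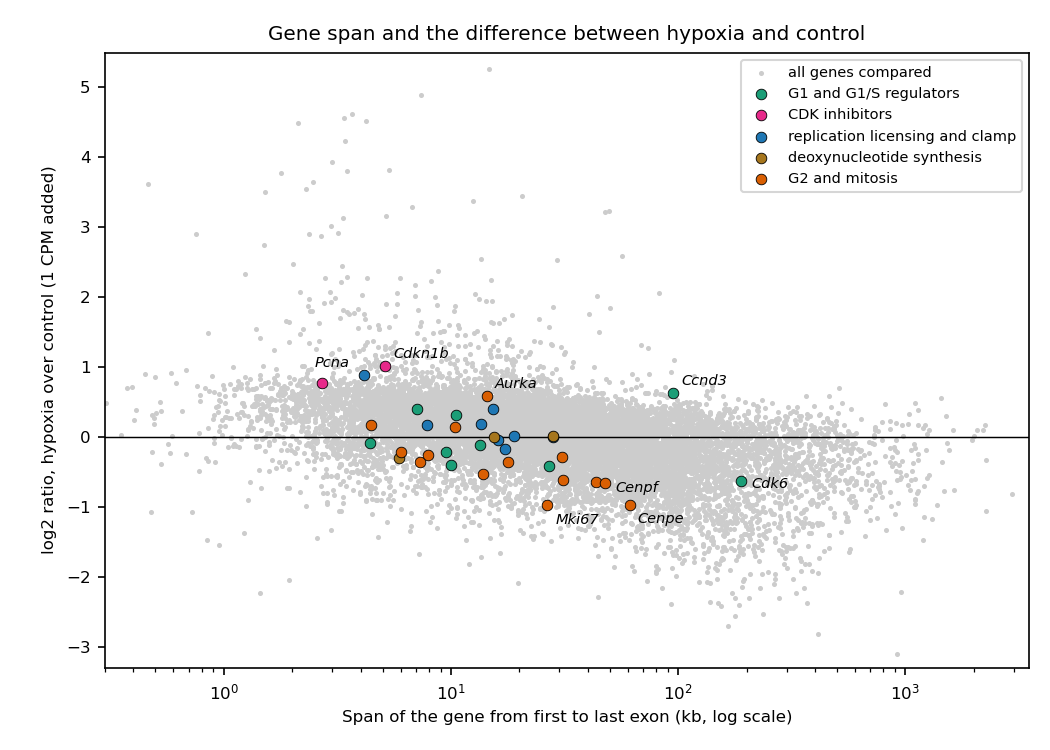
Log2 ratio of hypoxia over control (1 CPM added) against the span of each gene from first to last exon (kb, log scale), for all genes compared that have an annotated span (grey) and for the 36 genes coloured by role, 1 library each. Cdkn1b and Pcna lie among the short genes that are above 0, Mki67, Cenpe and Cdk6 lie below 0, and Ccnd3 (94.6 kb) and Aurka lie above 0.

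Markers of the cells that could divide in these cultures did not all follow the G2 and mitosis genes. The progenitor marker sum was 1.29-fold higher in hypoxia (1.25 to 1.34), and 1.14-fold with libraries scaled to the same sum. Of its 11 markers 4 had an interval above 1 (37.8% of all genes compared) and 2 below 1 (30%). These counts are near the shares of the table. Hes5, a Notch target of progenitors, was lower, at 10.2, 1.38 and 1.403 CPM. The oligodendrocyte lineage sum was 1.72-fold lower in hypoxia (1.65 to 1.79), with 8 of 9 markers below control (5770 of the 12692 genes compared were). Among these Olig2 stood at 87.4, 41.4 and 42.8 CPM and Pdgfra, the receptor of oligodendrocyte precursors, at 63.2, 27.2 and 22.3 CPM. The astrocyte sum had a ratio of 1.04, which became 0.923 with libraries scaled to the same sum. The part of these cell types in the cell cycle ratios was not tested.

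Other cell cycle genes, listed by role with earlier results of these data known, gave the wider pathway. Of 64 further G2 and mitosis genes 22 had an interval below 1 (30% of all genes compared did) and 10 above 1 in hypoxia (37.8%), with a median log2 ratio of -0.12, and their summed level was 1886, 1912 and 1968 CPM. The sum ratio of 1.01 became 0.898 with libraries scaled to the same sum. Nuf2, a subunit of the outer kinetochore complex, stood at 8.62, 4.09 and 6.17 CPM, 2.11-fold lower in hypoxia, and Ect2, the exchange factor of cytokinesis, at 9.41, 4.58 and 5.44 CPM, 2.05-fold lower. Hjurp, the chaperone that places the centromere histone, stood at 22.01, 40.7 and 44.7 CPM, 1.85-fold higher, and Cks2, a CDK-binding protein, at 4.03, 8.23 and 7.70 CPM, 2.04-fold higher. By the rule with 1 CPM added, 1 of the 64 was at least 2-fold lower (4.92% of all genes), the kinesin gene Kif20b at 5.24, 1.88 and 3.02 CPM, named after its values were seen, and 0 were higher (1.99%). This list therefore held both directions, as the 14 genes did with Aurka.

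Of 54 further S phase genes 52 were compared, 12 with an interval above 1 (37.8% of all genes) and 16 below 1 (30%), with a median log2 ratio of -0.05. Cdt1, which loads the MCM helicase with Cdc6, stood at 6.07, 16.5 and 16.0 CPM, 2.71-fold higher in hypoxia (2.20 to 3.36). Slbp, the histone mRNA binding protein, stood at 29.8, 75.3 and 70.6 CPM, 2.53-fold higher (2.30 to 2.78). Pola1, the catalytic subunit of DNA polymerase alpha, stood at 9.55, 4.20 and 5.32 CPM, 2.27-fold lower (1.74 to 2.999), and Pold3, a subunit of DNA polymerase delta, at 23.2, 13.5 and 13.2 CPM, 1.72-fold lower. With Exo1, an exonuclease at 4.59, 1.66 and 2.34 CPM named after its values were seen, 2 S phase genes were at least 2-fold lower (4.92% of all genes) and 2 higher (1.99%). The S phase genes outside the list were thus divided as well.

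Of 48 regulators outside the list 46 were compared, and 5 were at least 2-fold higher (1.99% of all genes) and 4 at least 2-fold lower (4.92%) in hypoxia. Intervals lay above 1 for 12 of the 46 (37.8% of all genes) and below 1 for 22 (30%), with a median log2 ratio of -0.04. Sertad1, a CDK4-binding regulator, stood at 0.834, 33.5 and 34.8 CPM, the first from 18 reads. The antiproliferative genes Btg1 and Tob1 stood at 44.2, 188 and 171 CPM and at 28.3, 118 and 114 CPM, 4.24-fold and 4.18-fold higher. E2f3, an activating E2F factor, stood at 36.7, 8.95 and 8.93 CPM and was 4.10-fold lower (3.46 to 4.88), the opposite side from E2f1. The others past the rule, named after their values were seen, were Cdkn1a, the p21 inhibitor, at 27.8, 86.1 and 91.9 CPM, and Btg2 (both higher), and Cables1, Tfdp2 and Rbl1 (all lower). RNA of Cdkn1a (p21) was thus higher in hypoxia together with that of Cdkn1b (p27) and Cdkn1c (p57). Protein was not measured.

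**Figure D4:**
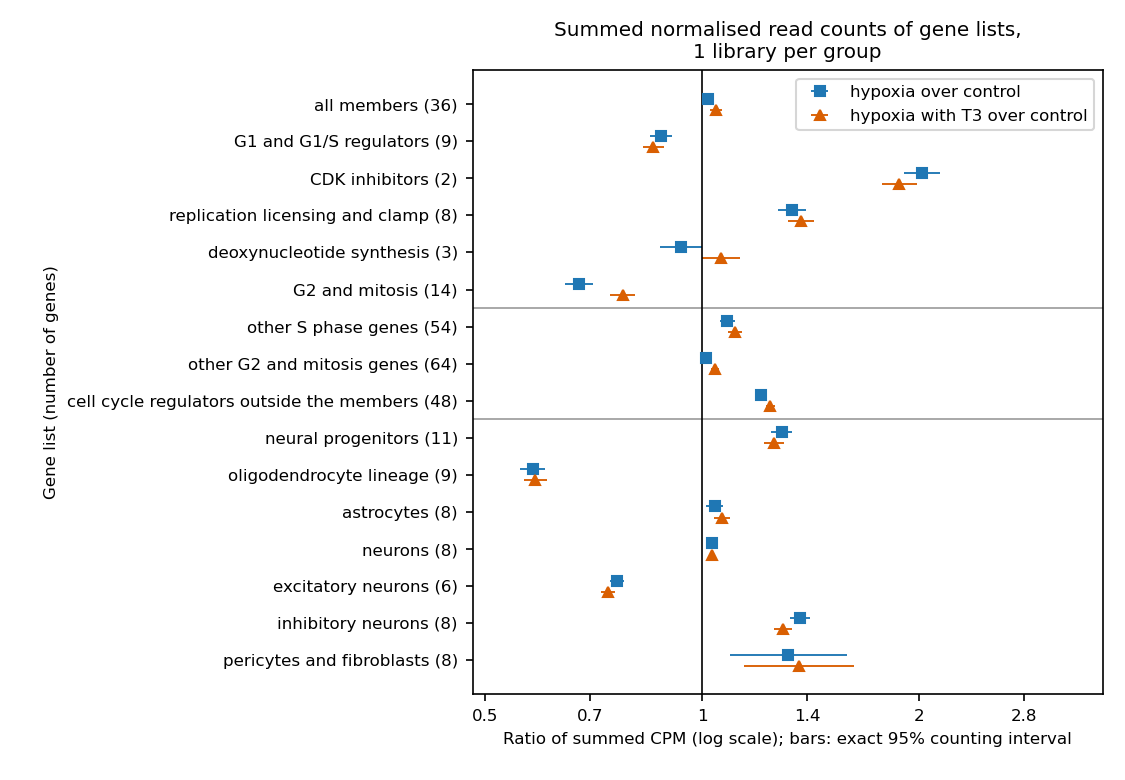
Ratio of summed CPM (log scale) over control for the roles of the 36 genes, for the 3 further cell cycle lists and for cell type marker lists, in hypoxia (squares) and hypoxia with T3 (triangles), 1 library each; bars are exact 95% counting intervals, and microglia and endothelium, at under 3 CPM, are left out. The CDK inhibitors lie at 2.02 and 1.88, the G2 and mitosis genes at 0.674 and 0.776, and the oligodendrocyte lineage at 0.582 and 0.587.

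The comparison of hypoxia with T3 over control shares the control library with the one above, so the values are given side by side and not as a second observation. By the 2-fold rule 0 of the 36 genes were higher (2.06% of all genes compared) and 0 lower (4.59%). At least 1.5-fold, 5 were higher (8.73%) and 3 lower (13.1%). Intervals lay above 1 for 11 genes (40%) and below 1 for 12 (29.6%). In all, 17 genes were above control (56.4%), and the median log2 ratio was -0.02 beside 0.08 over all genes. Cdkn1b was 1.90-fold higher than control with T3 (1.79 to 2.01) and 2.04-fold higher without. Pcna was 1.94-fold higher with T3 (1.81 to 2.08) and 1.86-fold higher without. Aurka was 1.77-fold higher with T3 (1.39 to 2.26) and 1.60-fold higher without. Mki67 was 1.66-fold lower with T3 (1.53 to 1.80) and Cenpe 1.92-fold lower (1.58 to 2.33), against 1.995-fold and 2.105-fold without.

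The last question is what T3 added under hypoxia. The 36 genes differed little between the hypoxic libraries, and most G2 and mitosis genes were slightly higher with T3. The sum of the 3 deoxynucleotide synthesis genes was higher by a like amount, with a ratio of 1.14 (1.07 to 1.21). Rrm1 and Rrm2 were higher, while Tyms had a ratio of 0.940 (0.789 to 1.12). By the 2-fold rule 0 genes were higher with T3 (0.126% of all genes compared) and 0 lower (0.063%), and at least 1.5-fold 0 were higher (0.717%) and 0 lower (0.276%). Ratios ran from 0.898 for Cdkn1c to 1.36 for Bub1. Intervals lay above 1 for 9 genes (11.1% of all genes) and below 1 for 2 (6.71%), and the median log2 ratio was 0.05 beside 0.01 over all genes.

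The summed level of the 14 G2 and mitosis genes was 170 CPM without T3 and 196 CPM with T3, 1.15-fold higher (1.10 to 1.21). Of the 14 genes 13 were above the hypoxia library (54.1% of all genes were), with Plk1 as the exception at a ratio of 0.967. Intervals lay above 1 for Bub1 at 1.36 (1.07 to 1.74), Bub1b at 1.35 (1.04 to 1.75), Ccnb1 at 1.23 (1.03 to 1.47), Mki67 at 1.201 (1.09 to 1.33) and Top2a at 1.17 (1.06 to 1.29). Without Mki67 and Top2a the sum was 1.13-fold higher with T3. Of the 64 further G2 and mitosis genes, 51 were above the hypoxia library and 12 had an interval above 1, while 0 had one below 1 (11.1% and 6.71% of all genes), and the median log2 ratio was 0.12. Among these Nuf2 was 1.51-fold higher with T3 (1.13 to 2.02), and Fam64a, Kif15 and Pbk were 1.34-fold, 1.30-fold and 1.27-fold higher. The low hypoxia values enter both this comparison and the one of hypoxia with control, so the 2 are not independent. How far cultures treated alike would differ is unknown with 1 library per group.

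Outside mitosis the intervals above 1 belonged to Mcm3 at 1.32 (1.10 to 1.58), Ccne1 at 1.32 (1.005 to 1.75, an interval that includes 1 under both other scalings), Rrm1 at 1.18 (1.08 to 1.29) and Rrm2 at 1.15 (1.021 to 1.29). Those below 1 belonged to Cdkn1b at 0.932 (0.887 to 0.979) and Ccnd2 at 0.940 (0.887 to 0.996). Ccnd1, Ccnd3, Cdk4 and Pcna had intervals that include 1. The marker sums that had stood apart from control were close between the hypoxic libraries: the oligodendrocyte lineage ratio was 1.01 and that of progenitors 0.976. Hr and Klf9, both thyroid hormone targets, were together 3.29-fold higher with T3.

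The authors' deposited tables compare each hypoxic library with control over 13152 genes with p-values and false discovery rates from a test that the sources used here do not name. In the authors' deposited table for hypoxia over control, 0 of the 36 genes had a false discovery rate under 0.05 (85 of all 13152 genes did, or 0.646%), and the smallest p was 0.0753, for Cenpe (false discovery rate 0.935). In the authors' deposited table for hypoxia with T3 over control, 0 of the 36 did either (104 of all genes, or 0.791%), and the smallest p was 0.100, for Cdk6 (false discovery rate 1).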

How the data were processed

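RNA of 3 cultures was sequenced from strand-specific KAPA libraries, per the labels' protocols, and samples were grouped by their treatment labels. Tools and builds named in the submitters' processing notes, with no roles, are mm10, RSEM 1.2.15, Bowtie2 2.1.0 and bcl2fastq 2.17. Whether counting used strand is not given in the sources used here. The authors deposited CPM for 24054 genes, TMM-normalised per the file name. Dividing CPM by the value of 1 read gave whole numbers (within 0.01) throughout, so reads were recovered. A count test needs replicates and could not be run on them. The authors' deposited comparison tables also hold each library's signal on another scale, not used for ratios here, a signed fold, and a p-value with its false discovery rate, per the file headers.

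Ratios of CPM carry exact 95% Clopper-Pearson intervals, and levels in the plot exact Poisson intervals. Both cover counting error only: reads were not tagged by molecule and so are not independent. Genes were compared where the mean was 1 CPM or more, and a call was at least 2-fold after adding 1 CPM. The interval calculation was tested on simulated independent Poisson counts, the model that the intervals assume. That test checks the calculation only and not how far real libraries depart from the model. The members and gene lists were chosen with earlier results of these data known. Named are all 36 members, up to 4 genes per further cell cycle list and comparison with the largest log2 ratio at a mean of at least 5 CPM, the targets of the treatments, and cell type markers. Gene spans and exonic lengths came from GENCODE M21 (GRCm38), promoters from RefSeq (GRCm38.p6). Shared sequence is the share of exonic words of 31 bases found in other genes, named from 20%. Python 3.11.15, pandas 2.3.3 and scipy 1.17.1 were used. Alternatives covered the added value, the filter, the scaling and the fold rule, and sums without Mki67, Top2a or Pcna were added after the data were seen.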

Additional observations from a re-analysis of the deposited data

How the results depend on the processing

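Calls at the 2-fold rule were few and lay near its edge. In hypoxia over control 1 gene was higher and 0 lower. With 0.25 CPM added 1 was lower. With 5 CPM added 0 were higher. With median-of-ratios size factors 0 were higher and 2 lower. With libraries scaled to the same sum 0 were higher and 2 lower, and in hypoxia with T3 over control 1 was lower. By a 1.5-fold rule, hypoxia over control gave 4 higher and 6 lower and the comparison of hypoxia with T3 to control gave 5 and 3. Filters on low values changed none of these counts. Scaling to the same sum moved the median log2 ratio of all genes from 0.05 to -0.10 in hypoxia over control and from 0.08 to -0.10 in hypoxia with T3 over control, and the calls over all genes from 252 higher and 624 lower to 192 and 974, and from 262 and 582 to 199 and 920. It left 6 genes with an interval above 1 in hypoxia with T3 over control, in place of 11, and turned the log2 ratio of Mcm7 there to -0.0231. Across the scalings the ratio crossed 1 for 4 genes in hypoxia over control (Mcm5, Rrm1, Tyms and Plk1), for 5 in hypoxia with T3 over control (Ccne1, Mcm7, Ccnb1, Plk1 and Bub1) and for 0 in hypoxia with T3 over hypoxia. The summed G2 and mitosis level was 1.48-fold lower in hypoxia as deposited, 1.54-fold with size factors and 1.67-fold with equal sums. No paired analysis was possible because each group holds 1 library, and for the same reason no replicate could be left out. Depth limits Cdk6, Ccnb2, Cdc6 and Ccne2 most, with 20 to 104 reads in a library.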
